A study of Sus scrofa with 20 samples.

Results

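Ileal mucosa of 10 gilts, young female pigs, was compared between low and high residual feed intake (RFI). RFI is the feed a pig eats above or below what its growth and maintenance would predict, so a low RFI pig is the more feed efficient one. The 10 gilts were all female pigs among 20 pigs measured, and were taken by the sex, feed efficiency and sow given in their labels. Each of the sows 1406, 1410, 1411, 1417 and 1435 gave 1 gilt labelled high feed efficiency (low RFI, n = 5) and 1 labelled low feed efficiency (high RFI, n = 5), so that the groups are 5 pairs of sisters. All were Large White x Landrace crosses kept as intact litters, with no treatment beyond their rank in feed efficiency. A litter shared a pen, and sow and pen therefore cannot be told apart. RFI was not set by the experiment, the labels give no age and no RFI value for a single pig, and each pig was measured on 1 array, a snowball array of the pig transcriptome. The 10 males of the same sows serve only for comparison.

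The ileum is the last stretch of the small intestine. Its enterocytes take up what sugar, peptide and fat is left, and they reclaim bile acids through the transporter SLC10A2 and the binding protein FABP6. The mucosa also holds crypts that renew the epithelium, mucus-making goblet cells, and dense lymphoid tissue that includes Peyer's patches, where B cells gather in follicles. Interferon-stimulated genes are a shared antiviral programme that any of these cells can switch on.

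Values were deposited on the log2 scale for 25092 probesets, and 1 probeset was read per gene for the 10567 genes with a symbol. Differences are low minus high RFI, a difference of 1 being a doubling in the low RFI gilt. Genes of the ileum were high, with FABP6 at 12.97 to 13.42, SLC10A2 at 10.54 to 12.41 and the villus protein gene VIL1 at 12.02 to 12.34. The liver gene ALB stayed at 2.05 to 2.64 and the pancreas gene PNLIP at 2.85 to 3.83. Other liver and pancreas genes were not all as low. CELA2A of the pancreas lay at 5.34 to 6.52 and TTR of the liver at 4.76 to 5.69, the percentiles 61 and 53 of all probesets. The arrays correlated at 0.949 to 0.974 with each other and had medians of 4.98 to 5.04. The sex in the labels could not be checked, since EIF1AY (6.40 to 7.33 in gilts, 5.90 to 6.75 in males) and SRY (1.34 to 2.03 and 1.20 to 1.98) overlapped between the sexes. These are scrapings of mucosa with many cell types, so fewer cells of a type and less RNA per cell cannot be told apart.

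Few transcripts separated the sisters. Of the 25092 probesets, 940 (3.75%) were differentially abundant at the study's threshold of an unadjusted p under 0.05 in limma with the sow in the model, 415 higher and 525 lower in low RFI gilts. Uniform p-values would give 1254.6. The shortfall held at stricter limits, with 163 probesets under 0.01 (250.9 for uniform p-values) and 19 under 0.001 (25.1). None of the 25092 passed after the adjustment of Benjamini and Hochberg, and the smallest adjusted p was 0.981. A gene is said below to pass, or to be higher or lower, at the unadjusted threshold only. By gene, 153 of 10567 (1.45%) were higher and 186 (1.76%) lower in low RFI gilts. The median size of a called difference was 0.48, and 90 of the called probesets differed by more than 1. With a median standard error of 0.16, a difference of 0.37 was needed to reach the threshold, so smaller effects were mostly not detectable with 5 pairs. For a single gene, an exact two-sided test over 5 pairs gives 0.0625 where all litters share a sign and cannot give less, so none is quoted per gene.

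**Figure D1:**
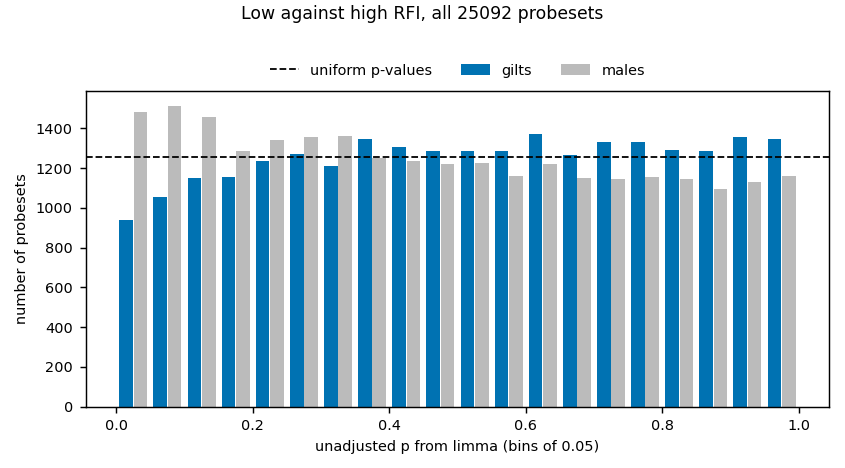
Number of probesets in each bin of 0.05 of the unadjusted limma p for low against high RFI, in gilts (blue) and males (grey), with a dashed line at the 1254.6 probesets of uniform p-values. In gilts the lowest bin is the emptiest, at 940 probesets, and in males it holds 1482.

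The litters did not share one pattern. Correlations between the differences of any 2 litters, taken over all probesets, lay between -0.14 and 0.08, and the SD of a litter's differences was 0.53 to 0.58 throughout. All 5 litters had the same sign at 1324 probesets (5.28%), of which 580 were called. The sow accounted for a median of 48.3% of a probeset's variance, over 4 degrees of freedom, and the RFI class for 4.82%, over 1. A term with more degrees of freedom takes a larger share even without an effect. The sow term passed an unadjusted p under 0.05 in limma at 1790 probesets, and at none after adjustment. The consensus correlation of the 2 gilts of a sow was 0.08. The first principal component of the gilts (21.7% of the variance) lay 75.5% between sows and 2.25% between RFI classes.

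Among the genes higher in low RFI gilts, RUNDC3A and TSPAN5 had the smallest p-values. Pig values are given in the order of the sows 1406, 1410, 1411, 1417 and 1435. The genes were named for their difference or p in these gilts, so groups without overlap follow in part from that choice. RUNDC3A, a RUN domain protein known from neurons (chromosome 12, 18920365 to 18929766 on Sscrofa11.1), had 5.07, 5.25, 4.33, 5.07 and 5.45 in low RFI gilts and 4.31, 4.07, 3.27, 3.10 and 3.41 in high RFI gilts. Its groups did not overlap, and the difference was 1.40 (standard error 0.22). TSPAN5, a tetraspanin that escorts the protease ADAM10 (chromosome 8, 121657320 to 121843296), had 5.46, 5.60, 5.44, 6.11 and 6.10 against 4.53, 4.66, 4.60, 5.42 and 5.72. The litters 1417 and 1435 were the high ones in both groups, so that the groups overlapped although each low RFI gilt exceeded its sister by 0.38 or more. The difference was 0.76 (standard error 0.13). NUDT16, a nuclear hydrolase of nucleotides and RNA caps, was also without overlap, at 6.06 to 6.59 in low and 5.15 to 6.05 in high RFI gilts (0.75, standard error 0.17).

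Further genes higher in low RFI gilts came from varied pathways. B4GALNT1, the synthase of the gangliosides GM2 and GD2, averaged 4.77 ± 0.90 with low RFI and 3.43 ± 0.82 with high RFI (SD, 5 gilts each), a difference of 1.34. ZNF202, a zinc finger repressor, differed by 1.06, and CCNG1, cyclin G1, by 1.02. RENBP, the epimerase of N-acetylglucosamine and N-acetylmannosamine, differed by 0.99, and SULF2, which trims sulfate from heparan sulfate outside the cell, by 0.73. ASAP2, an Arf GTPase activating protein (1.07), the adhesion protein gene FLRT3 (0.91) and the lipid-binding OSBPL1A (0.73) completed the 12 widest differences above 0 among passing genes with 1 sign in all 5 litters and a mean of at least 3.30, the lower quartile of all probesets. STXBP5, tomosyn, a brake on vesicle fusion, had the widest difference of the genes named for their rise, 1.63 (standard error 0.52). Its low RFI gilts lay close together, at 5.07 to 5.75, whereas the high RFI gilts ran from 1.69 to 5.36. Without one litter at a time it was 1.08 to 1.96, and without sow 1435 it did not pass. OSBPL1A did not pass without the litter in the model, with the sow as a random block, or with all 20 pigs and the sow. ASAP2, CCNG1 and ZNF202 did not pass with the spread estimated over all 20 pigs by litter and sex.

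PAFAH2 was the gene with the smallest p of the gilts. It encodes an enzyme that inactivates platelet-activating factor and releases oxidised fatty acids from phospholipids (chromosome 6, 83413513 to 83446967). Its values were 5.29, 6.08, 6.08, 4.93 and 5.73 in low RFI gilts and 6.13, 6.82, 7.0, 6.17 and 6.91 in high RFI gilts. Every high RFI gilt lay above every low RFI gilt, and the difference was -0.99 (standard error 0.12, adjusted p = 0.981, limma). ABCC9, a regulatory subunit of ATP-sensitive potassium channels, had 3.62, 3.47, 3.27, 3.52 and 4.14 against 4.18, 4.69, 4.14, 4.73 and 4.72 (-0.89, standard error 0.15). The groups did not overlap but met at 4.14. Of the 4 probesets of ABCC9 2 were higher, and the mean of all 4 gave -0.06, which did not pass. HTRA4, a secreted serine protease, differed by -0.77, but its other probeset had the opposite sign and the mean of both was 0.20.

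MAX, the partner of MYC in DNA binding, had 4.11, 4.28, 3.96, 4.06 and 3.68 in low and 5.24, 4.34, 5.44, 4.68 and 4.96 in high RFI gilts (-0.91, standard error 0.22). The groups did not overlap, though the sisters of sow 1410 were nearly level. DLG2, a scaffold of synapses, was likewise lower without overlap, at 2.67 to 3.61 against 3.73 to 4.25 (-0.79). GIPC2, a PDZ scaffold, fell most among the genes named for their size, by 1.76 on the log2 scale (standard error 0.33). Its low RFI gilts had 3.63, 1.63, 4.13, 6.01 and 4.28 and their sisters 5.60, 4.82, 5.07, 6.96 and 6.02, so each low RFI gilt lay below its sister, with the widest step in sow 1410, while the groups overlapped. MMP13, collagenase 3 of the matrix, differed by -1.45 and ENDOD1, with an endonuclease domain, by -1.14.

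TAB1, the activating partner of the kinase TAK1 below toll-like and cytokine receptors, was 4.92, 6.11, 4.99, 5.70 and 6.16 in low and 5.72, 6.65, 6.34, 6.84 and 6.63 in high RFI gilts (-0.86, standard error 0.16). ALPK1, the kinase that senses bacterial ADP-heptose sugars, was lower by 0.80 (-0.80), and all 3 of its probesets were negative. TLR9, the receptor for bacterial DNA, was higher by 0.54 in 5 of 5 litters but did not pass without sow 1410, 1411 or 1417, and was 0.33 without sow 1411. THAP7, a transcriptional repressor (-0.82), and BEX5 (-0.94) completed the 12 widest differences below 0 under the same limits, and BEX5 did not pass without sow 1435.

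**Figure D2:**
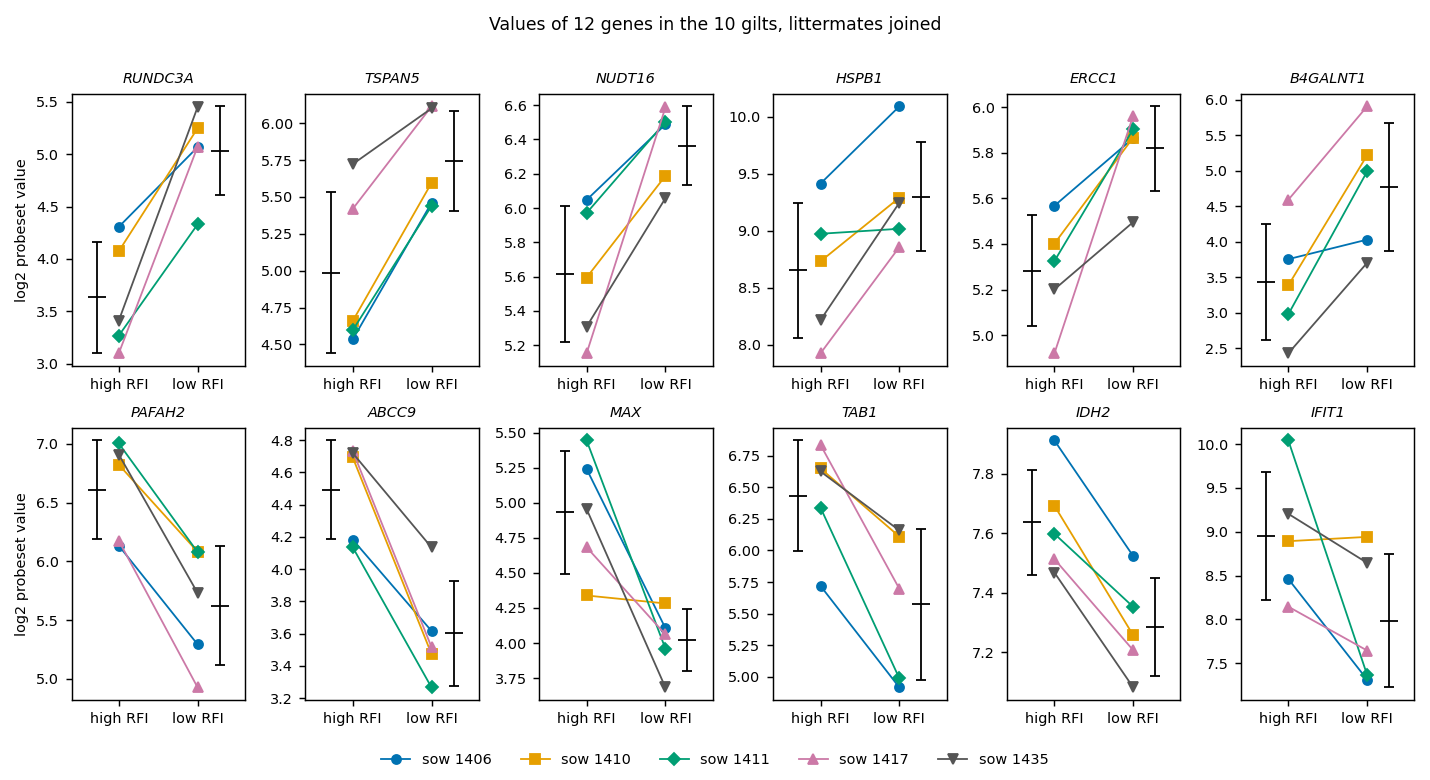
log2 probeset values of 12 genes in the 10 gilts, with the sisters of a litter joined and the mean ± SD of each group (n = 5) beside them in black. RUNDC3A, NUDT16, PAFAH2, ABCC9 and MAX have groups that do not overlap, whereas those of TSPAN5, B4GALNT1 and IDH2 overlap although every litter has the same sign. Genes were named for their difference or p in these gilts, so the lack of overlap follows in part from that choice. IFIT1 has its widest step in sow 1411.

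Of 139 measured genes in 8 lists of transport and digestion, 2 were higher and 4 lower, a share (4.32%) near the 3.21% of all genes. SLC5A1, the sodium-glucose transporter, lay at 12.11 to 12.75 in low and 12.33 to 12.68 in high RFI gilts (-0.01, standard error 0.15). The peptide transporter SLC15A1 (-0.05, standard error 0.22), the bile acid transporter SLC10A2 (-0.29, standard error 0.23), FABP6 (0.04, standard error 0.14) and the chylomicron protein gene APOB (-0.23, standard error 0.25) did not pass, nor did SLC5A1. The low RFI gilts of sows 1406 and 1410 were the lowest of the 10 for SLC15A1 (10.40 and 10.56) and APOB (11.14 and 11.22). Of the genes that passed, SLC2A5, the fructose transporter, was 0.29 higher in low RFI gilts (standard error 0.12) in 5 of 5 litters, at 8.85, 9.26, 9.32, 9.38 and 8.71 against 8.30, 8.96, 9.30, 9.0 and 8.51. It did not pass without sow 1406, 1410, 1417 or 1435. S100G, calbindin D9k, which ferries calcium through enterocytes, was 0.97 higher, and its pigs ran from 5.97 to 9.67. It was 0.54 without sow 1417 and did not pass without sow 1406, 1410 or 1417. RBP4, the carrier of retinol, was 0.44 lower (-0.44) in 5 of 5 litters.

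Lower in low RFI gilts were also SLC6A14, a carrier of neutral and cationic amino acids (-0.40), HCAR1, the lactate receptor (-0.30), and SLC16A5, of the monocarboxylate transporter family (-2.02). SLC16A5 had the largest difference of all called genes, but 1.37, 2.16, 1.22, 2.10 and 3.86 stood against 4.07, 3.61, 4.35, 6.54 and 2.27, with sow 1435 the other way round. HCAR1 did not pass without sow 1406, 1410, 1411 or 1417. SLC16A5 was -2.93 without sow 1435, and without sow 1406, 1410, 1411 or 1417 it did not pass. The means of SLC6A14 and SLC16A5 over the gilts lay below the lower quartile of all probesets.

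In 12 lists of metabolism 3 of 181 genes were higher and 4 lower, a share (3.87%) near the 3.21% of all genes. FDPS, farnesyl diphosphate synthase of the cholesterol pathway, was 1.89 higher (standard error 0.73), with 4.03, 4.47, 3.95, 6.23 and 5.44 against 4.70, 4.30, 1.91, 2.10 and 1.68. The high RFI gilts of sows 1411, 1417 and 1435 were low, that of sow 1410 was near its sister and that of sow 1406 was the higher one, and FDPS did not pass without sow 1411, 1417 or 1435. The cholesterol list had 12 of 15 genes positive, against 49.2% of all genes, and a median of 0.11, which was 0.003 without sow 1417. PCK2, the mitochondrial PEP carboxykinase, was higher (0.45), but it was 0.28 without sow 1417 and did not pass without sow 1406, 1410, 1411 or 1417. CPT1B, which admits fatty acids to mitochondria, was lower (-0.73), though it did not pass without sow 1410, 1411, 1417 or 1435, nor as the mean of its probesets (-0.21). IDH2, the mitochondrial NADP-dependent isocitrate dehydrogenase, was lower in 5 of 5 litters, at 7.52, 7.26, 7.35, 7.21 and 7.08 against 7.91, 7.69, 7.60, 7.51 and 7.47 (-0.35, standard error 0.10). The step was small but alike in all litters, and IDH2 passed without each of them in turn (-0.38 to -0.33). CYP19A1, aromatase, was higher (0.45) at a level of 2.16 against 1.70, and the pig carries near-identical copies of this gene that a probeset may not separate. ESR2, an oestrogen receptor, was lower (-0.34) but did not pass without sow 1406, 1410, 1417 or 1435. ABCC1, an efflux pump, was lower in 5 of 5 litters (-0.48).

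Complex I of the respiratory chain, which passes electrons from NADH to ubiquinone, had 23 of its 24 measured genes on the positive side, against 49.2% of all genes. None of the 24 passed, and NDUFC1 (0.20, standard error 0.12) came closest. The median was 0.11 in the gilts and -0.003 for all genes, and it stayed at 0.09 to 0.13 without any one litter. By litter the medians were 0.03, 0.13, 0.22, 0.12 and 0.09. Examples are NDUFB3 (0.17) and NDUFA9 (0.16), each higher in 5 of 5 litters. In males the median was -0.003. The mean of the 24 genes was higher in the low RFI sister in 4 of 5 litters. Medians above 0 in all 5 gilt litters were not particular to complex I. They were also found for complexes III, IV and ATP synthase (0.03, 0.08, 0.16, 0.06 and 0.02), for fatty acid synthesis and for insulin and mTOR signalling. Genes read on 1 array share its RNA, so that 23 of 24 is a description and not a test. The ribosomal protein genes were alike in size (median 0.08, 39 of 53 positive) but not in litters, whose medians were 0.15, -0.09, 0.22, 0.09 and -0.04. RPL10 alone of them passed, and it was lower (-1.84), at a probeset whose mean of 3.24 is below the lower quartile named above. Its pairs were 1.04 and 2.82, 3.03 and 5.90, 2.38 and 4.35, 3.75 and 4.53, and 1.40 and 3.21, the low RFI gilt first.

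Hydroxyproline and proline degradation, of which mitochondrial HOGA1 and ALDH4A1 carry late steps, had no call in 8 genes. HOGA1 differed by -0.36 (standard error 0.16) and ALDH4A1 by -0.21 (standard error 0.14), each lower in 4 of 5 litters, and neither passed. Without sow 1410 both passed, at -0.47 and -0.32. HOGA1 also passed under the study's filters, with array weights and with all 20 pigs in the fit. The list's median was 0.05, with 4 of 8 genes positive.

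In 8 lists of epithelial cell types, signalling and junctions, none of 151 genes was higher and 2 were lower (1.32%, against 3.21% of all genes). MUC2, the main mucin of goblet cells, lay at 9.30 to 11.31 in low and 9.85 to 11.52 in high RFI gilts (-0.21, standard error 0.41), and CHGA, of enteroendocrine cells, differed by 0.05 (standard error 0.16). LGR5, of crypt stem cells, was at 1.49 to 2.20, well under the lower quartile. The 2 genes that passed were DMBT1, a mucosal glycoprotein that binds bacteria (-0.83), and ZNRF3, a ligase that removes Wnt receptors (-0.40). DMBT1 did not pass without sow 1411 or 1417, nor ZNRF3 without sow 1406, 1410 or 1417, and the mean of the 4 probesets of ZNRF3 gave -0.11, which did not pass.

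In 15 lists of growth, cell division and stress 8 of 391 genes were higher and 5 lower, a share (3.32%) near the 3.21% of all genes. The mitotic genes BIRC5 (0.63) and BUB1 (0.40) were higher in low RFI gilts in 4 of 5 litters, while CCNB2, cyclin B2, was lower (-0.81). Neither BIRC5 nor BUB1 passed without sow 1406, 1411 or 1417. The mean of both probesets was -0.02 for BUB1 and -0.36 for CCNB2, and neither passed. MCM4, a subunit of the replicative helicase, was lower in 5 of 5 litters, at 4.18, 4.71, 5.73, 4.74 and 3.96 against 5.32, 4.95, 5.82, 5.01 and 4.91 (-0.54, standard error 0.19). The litters of sows 1406 and 1435 had the widest steps, and MCM4 did not pass without either of them. Among DNA repair genes, higher values in 5 of 5 litters were found for ERCC1 of nucleotide excision repair (0.54, standard error 0.14) and XRCC2 of homologous recombination (0.44). ERCC1 was 5.86, 5.87, 5.90, 5.96 and 5.50 in low and 5.57, 5.40, 5.33, 4.92 and 5.20 in high RFI gilts, with all 3 of its probesets on the same side. Only the low RFI gilt of sow 1435 fell among the high RFI values.

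HSPB1, the small heat shock protein HSP27, was higher in 5 of 5 litters, at 10.09, 9.29, 9.02, 8.86 and 9.25 in low and 9.41, 8.73, 8.97, 7.93 and 8.22 in high RFI gilts (0.65, standard error 0.17). The step was wide in litter 1435 and close to nil in litter 1411. Smooth muscle makes much HSPB1, and the mean of 19 smooth muscle genes was 4.54 to 5.38 in low and 4.74 to 4.97 in high RFI gilts. With a standardised score of that list as a covariate HSPB1 differed by 0.66 and passed. The part of muscle content in the difference was not tested. HSPB1 did not pass without the litter in the model, nor with the spread estimated over all 20 pigs by litter and sex. CRYAB, another small heat shock protein, went the other way (-0.77) on 3 of 5 litters and did not pass without sow 1411, 1417 or 1435. Of 22 heat shock and folding genes 18 were positive, against 49.2% of all genes, with a median of 0.13 in gilts and -0.12 in males. Only HSPB1 passed as higher and only CRYAB as lower. By gilt litter the medians were 0.37, -0.05, 0.24, 0.01 and 0.26, and the list's mean was higher in the low RFI sister in 3 of 5 litters. The count of 18 is a description and not a test, since the genes share the RNA of each array. PSME3, a proteasome activator, was lower (-0.68). TSC1, a brake on mTOR (0.41), and IGFBP4, a binding protein of insulin-like growth factors (0.66), were higher, but the mean of the 3 probesets of TSC1 gave 0.11 and did not pass. TSC1 did not pass without sow 1406 or 1435, nor IGFBP4 without sow 1406, 1411, 1417 or 1435. WDR12, of ribosome assembly, was higher (0.97) at values of 0.57 to 2.59, under the lower quartile.

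Interferon-stimulated genes leaned below 0 in low RFI gilts, unevenly over litters. Of 33 measured genes 28 had a negative difference, where 49.2% of all genes had a positive one. Beside 3.21% of all genes, 2 of the 33 passed, IFIT1, which binds viral RNA (-0.97, standard error 0.37), and PARP14, an ADP-ribosyltransferase (-0.34, standard error 0.14). The list's median was -0.37. DDX60, a helicase of antiviral sensing, had -0.62 (standard error 0.27) with all 5 litters negative, and the antiviral genes RSAD2 (-0.95), MX1 (-0.82) and IFIH1 (-1.26) did not pass either. IFIT1 had 7.31, 8.94, 7.37, 7.64 and 8.65 against 8.46, 8.89, 10.04, 8.15 and 9.20. The mean of the 33 genes was 7.21, 8.50, 7.37, 7.17 and 8.19 in low RFI gilts and 7.57, 8.16, 8.92, 7.19 and 8.54 in high RFI gilts. One high RFI gilt, that of sow 1411, thus had the highest level of the 10. Medians within litters were -0.34, 0.33, -1.62, -0.10 and -0.32, so sow 1410 went the other way. Without sow 1411 the list's median was -0.10 with 1 of 33 genes passing, where 980 of all 25092 probesets passed. Without sow 1410 it was -0.61 with 7 of 33, where 947 of all 25092 probesets passed. Genes read on 1 array share its RNA, so these counts are a description and not a test. In males of the same sows the medians within litters were 0.85, 1.04, -0.17, -1.41 and -0.34, and the list's median was -0.06. Neither gene passed as the mean of its probesets (-0.86 for IFIT1 and -0.25 for PARP14). IFIT1 did not pass without sow 1406 or 1435, and PARP14 without sow 1410, 1411, 1417 or 1435.

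B cell and follicle genes leaned above 0. Of 19 genes 16 were positive, against 49.2% of all genes, and 1 passed, against 3.21% of all genes. The median was 0.28. BACH2, a transcription factor of B and T cells, was the one that passed (0.46, standard error 0.18), and it did not pass without sow 1406, 1410, 1411 or 1435. MS4A1, which encodes CD20, had 8.16, 7.56, 8.17, 6.40 and 5.39 in low and 6.30, 6.77, 7.68, 5.43 and 7.06 in high RFI gilts (0.49, standard error 0.46). The low RFI sister was the higher one in 4 litters and the lower one by 1.67 in litter 1435. The mean of the 19 genes was likewise higher in the low RFI sister in 4 litters, at 6.74, 6.73, 6.84, 5.89 and 5.72 against 5.82, 6.13, 6.55, 5.72 and 6.37. Without sow 1435, the litter that went the other way, the list's median was 0.44 with 9 of 19 genes passing, among them MS4A1 (1.03). Of all 25092 probesets 1114 passed in that setting. The list's median was 0.11 without sow 1406 and 0.17 without sow 1410. Genes read on 1 array share its RNA, so these counts are a description and not a test. In males the list's median was -0.29, with 2 genes lower.

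In 6 immune lists 2 of 187 genes were higher and 4 lower (3.21%, against 3.21% of all genes). In 13 lists of cell markers 6 of 230 were higher and 6 lower (5.22%). T cell genes had no call among 18, a median of 0.002 (-0.02 after renewed quantile normalization) and CD3E at 0.003 (standard error 0.11). KLRD1, a receptor of natural killer and cytotoxic T cells, differed by 0.31 (standard error 0.34) and did not pass, but passed without sow 1406 (0.69). Of the other immune and stromal genes, AIF1 of macrophages (0.45), CFP, the complement activator properdin (0.69), COL1A1 of type I collagen (0.65) and SELE, E-selectin of activated endothelium (0.70), were higher in low RFI gilts. AIF1 was the 1 gene to pass of 17 in the list of macrophages and dendritic cells, whose median was -0.01 with 9 negative. As the mean of their probesets neither AIF1 (0.22) nor SELE (0.27) passed. MADCAM1, the vessel address for gut-homing lymphocytes (-0.31), SIGLEC5 of myeloid cells (-0.27), the muscle gene LMOD1 (-0.32) and the lipase gene CEL (-0.42) were lower. The mean of their probesets was -0.26 for MADCAM1 and -0.26 for SIGLEC5, and neither passed. PSMB8, of the immunoproteasome, was lower too (-1.38), with sow 1411 the other way round, and did not pass without sow 1417. FLNA (0.80) was read at 0.69 to 2.55, under the lower quartile. LIPE, the hormone-sensitive lipase, was higher (0.32), but the mean of its 3 probesets was 0.06 and did not pass. Calls were lost without sow 1406 or 1435 for AIF1, without sow 1406, 1410 or 1417 for COL1A1, without sow 1410, 1417 or 1435 for SELE, without sow 1406, 1410 or 1435 for CEL and without sow 1406, 1410 or 1411 for FLNA. CFP and LMOD1 were lost without sow 1406, 1410, 1411 or 1435, MADCAM1 without sow 1406, 1410, 1417 or 1435, SIGLEC5 without sow 1410, 1411, 1417 or 1435 and LIPE without sow 1406, 1411, 1417 or 1435. The mean of 39 fibroblast and matrix genes was 6.39, 6.11, 5.92, 4.98 and 5.06 in low and 5.85, 5.67, 5.92, 5.31 and 5.72 in high RFI gilts, higher in the low RFI gilt of sows 1406 and 1410 and lower in that of sows 1417 and 1435. COL1A1 is a member of that list, and the list's part in the call of SELE was not tested.

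**Figure D3:**
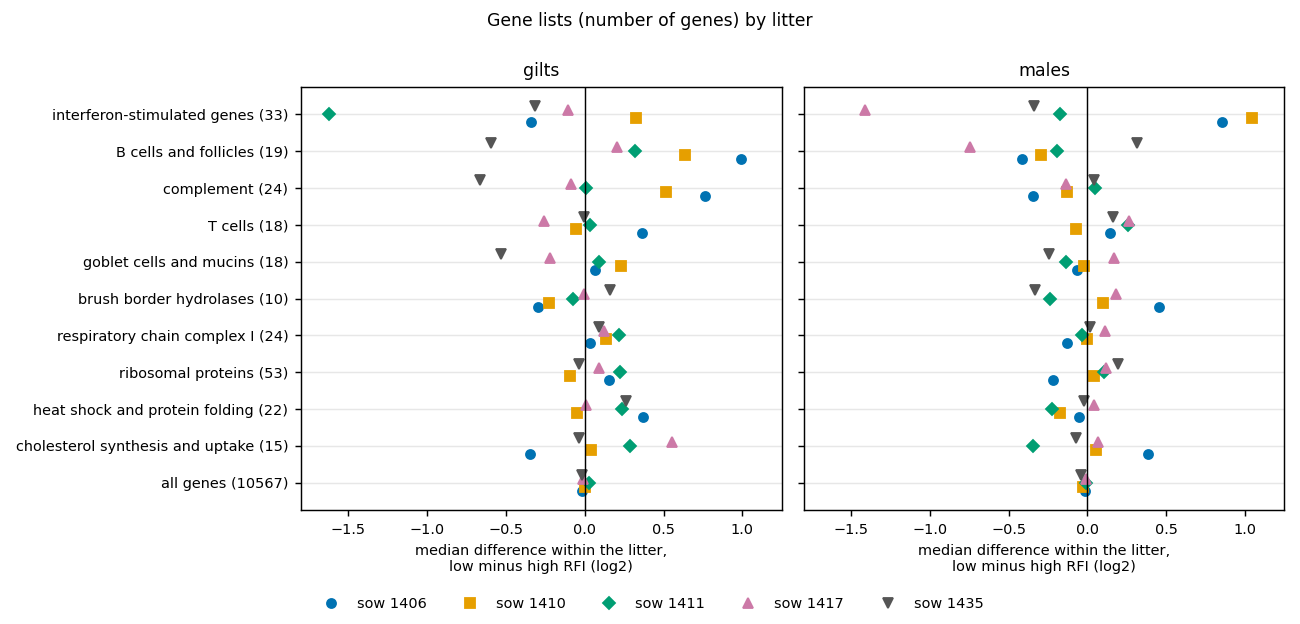
Median difference, low minus high RFI on the log2 scale, within each litter for 10 gene lists and for all genes, in gilts (left) and males (right), with the number of genes in brackets and a symbol per sow. The interferon-stimulated genes of gilts run from -1.62 (sow 1411) to 0.33 (sow 1410), and complex I is the list shown whose 5 gilt litters all lie above 0. Some lists not shown also have all 5 above 0.

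Across the 63 lists together 1258 genes were measured, and 21 were higher and 25 lower (3.66%, against 3.21% of all genes). Of the 70 named genes that had passed, 22 passed without each litter in turn and under every other setting in which they were tested. All settings reuse the arrays on which the 70 had passed, so passing again is not independent evidence. The 22 were RUNDC3A, TSPAN5, NUDT16, B4GALNT1, SULF2, RENBP, FLRT3, NHEJ1, ERCC1 and XRCC2 on the higher side, and PAFAH2, GIPC2, ENDOD1, ALPK1, MAX, THAP7, DLG2, TAB1, MMP13, RPL10, RBP4 and IDH2 on the lower side. The study's filters on mean and SD removed 7 of the 22 (B4GALNT1, NHEJ1, GIPC2, ENDOD1, THAP7, MMP13 and RPL10), which therefore had no test there, and 4 of the 22 had several probesets to average.

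The gilt differences were then read in the males of the same litters, which share sows with the gilts but no pig. In males 1482 probesets (5.91%) passed the same test, again none after adjustment (smallest adjusted p 0.814). Of the 940 gilt calls, 477 (50.7%) had the same sign in males, beside 47.3% of all probesets. In males 83 of the 940 passed, 43 with the same sign and 40 with the opposite one. The probesets higher in low RFI gilts had a median of -0.04 in males and the lower ones -0.03. Over all probesets the 2 sets of differences correlated at r = -0.05 (rho = -0.08, n = 25092 probesets of the same litters).

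A few genes passed in both sexes with the same sign, and others, given further below, with opposite signs. TSPAN5 was higher in low RFI males too (0.53, 5 of 5 litters), and the difference between the sexes was 0.22, which did not pass. STXBP5 (1.61) and CSMD2, a membrane protein with complement-type domains (1.12 in gilts, and 1.05 in males), followed. Lower in both were MCM4 (-1.03 in males), DLG2 (-0.45), IDH2 (-0.33), MMP13 (-0.52) and CRYAB (-0.48), as well as PXMP2, of the peroxisomal membrane (-0.41 in both sexes), the myeloid receptor gene TARM1 (-0.42 and -0.34), the protease gene PRSS27 (-0.37 and -0.41), MYPOP (-0.37 and -0.33) and TTC23L (-0.50 and -0.52). CSMD2, PXMP2, TARM1, PRSS27, MYPOP and TTC23L were named for passing in both sexes after their values were seen. Each of them is given at 1 probeset, and none was read under the other settings, such as the mean of a gene's probesets. Whether other probesets of CSMD2 go the same way is therefore not shown. Since these genes were picked by both tests, their shared sign is a description.

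The difference between the gilt effect and the male effect was tested itself over all 20 pigs. It passed p under 0.05 at 1493 probesets (5.95%, where uniform p-values give 1254.6) and at none after adjustment (smallest adjusted p 0.488). PAFAH2 had the smallest p (gilt minus male -1.34, adjusted p = 0.488, limma), being lower in 5 of 5 litters of gilts and 0.35 higher in 5 of 5 litters of males, where it did not pass. RUNDC3A (1.81) was -0.41 in males. NHEJ1, of DNA end joining, was 1.01 higher in low RFI gilts and 0.76 lower in low RFI males (-0.76), a difference of 1.77. CD209, the dendritic cell lectin DC-SIGN, was 0.53 higher in 5 of 5 gilt litters and lower in 5 of 5 male litters (-0.62), though its gilt call was lost without sow 1406, 1410 or 1411. Of the other genes of smallest p, PTTG1, securin of the mitotic spindle (0.58, not passing, and -0.98), and the endothelin-converting ECE2 (0.52 and -0.28, the latter not passing) were positive in gilts and negative in males. As the mean of its probesets ECE2 was 0.20 in gilts and did not pass. PLD5 (-0.21 and 0.85) and the splicing regulator PTBP3 (-0.30 and 3.15) passed in males but not in gilts. Further genes past the threshold in opposite directions in the 2 sexes, named after their values were seen, included FXYD2, a subunit that tunes the sodium pump (1.47 and -0.89), and PPAT, of purine synthesis (0.63 and -0.49). The same held for GMPR2 (0.65 and -1.03), ABHD1 (-0.61 and 0.88), CLCN1 (-0.45 and 0.98), CD2AP (-0.35 and 0.39), SRRM3 (-0.42 and 0.41) and TMEM106B (-0.29 and 0.39).

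Genes that passed in one sex alone need not differ between them. ACTA2, smooth muscle actin, was -0.90 in males, where it passed, and -0.33 in gilts, where it did not, with a difference of 0.57 that did not pass. For KLRD1 (0.77 in males) and ALDH4A1 (-0.46) the difference did not pass either. Conversely B4GALNT1 and GIPC2 passed in gilts and stood at 0.08 and -0.12 in males, and of these differences that of GIPC2 passed (-1.64) and that of B4GALNT1 did not (1.26).

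**Figure D4:**
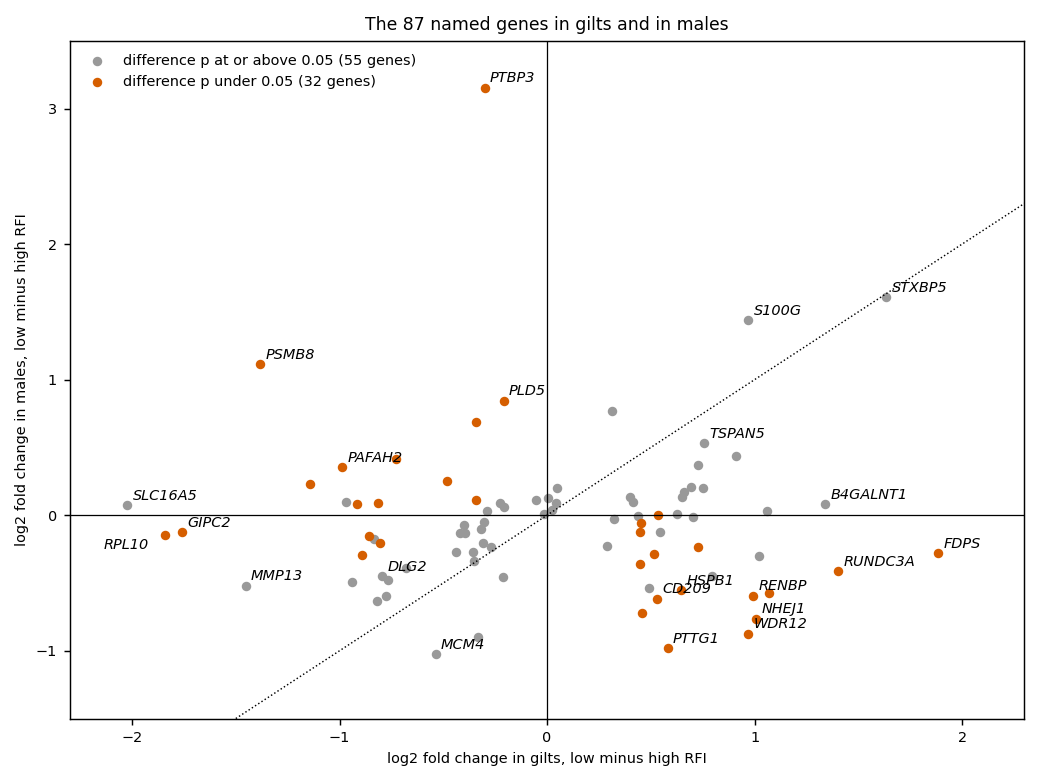
log2 fold change of the 87 named genes, low minus high RFI, in gilts (horizontal) and males (vertical), with the line of equal change dotted and genes whose sexes differ at p under 0.05 in orange (32 genes). Many named genes were chosen for their gilt value or for this difference, so their spread along the horizontal axis is by choice. TSPAN5, STXBP5 and MCM4 lie in the quadrants of shared sign and PAFAH2 and RUNDC3A in the others.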

How the data were processed

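Ileal mucosa of 20 pigs was measured on 1 array each. The authors assigned probes to Sscrofa11.1 and summarised them by robust multichip average, and deposited them on the log2 scale. The submitters' notes name GCOS 1.1.1. The labels name Qiazol, RNeasy and the Ambion WT Expression kit, whereas the methods name other RNA and labelling kits. Of 47845 rows, 25092 were filled, 16361 of them with 1 symbol, and 331 symbols were updated through RefSeq. Normalization across arrays can even out global shifts, and the number of arrays limits the precision.

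For each probeset, lmFit and eBayes of limma 3.58.1 (R 4.3.3) were fitted to the 10 gilts with RFI class and sow. The study's model also holds the slaughter batch, which the labels do not give, so it was left out. Males were fitted alike, and the sex difference was fitted over 20 pigs with the litter-by-sex pair. Pairing by litter comes from the labels. The deviations of 1 of the 5 pairs of sisters correlated over 0.1. No low value filter was applied. Figures used Python 3.11.15 and matplotlib 3.10.9. The scripts were tested on simulated data.

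A gene is read at the probeset of highest mean over all arrays. Named were the 12 highest and 12 lowest differences at p under 0.05 with 1 sign in all 5 litters and a mean of at least 3.30, the 5 of smallest p, up to 4 passing members of each list, the 8 of smallest sex difference p, and 20 fixed genes, of which MKI67, JCHAIN, ESR1 and PGR had no probeset of that name. The animals and lists were chosen with earlier results of these data known. Alternatives are given in the closing section.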

Additional observations from a re-analysis of the deposited data

Results flagged for a closer look

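In 174 groups of 5 gilts (87 named genes), 6 values stood apart from the rest of their group by Dixon's criterion, where chance marks about 1 in 20 groups. ALPK1 was low in the high RFI gilt of sow 1410 (5.03, the nearest at 5.59), and ERCC1 in the low RFI gilt of sow 1435 (5.50, the nearest at 5.86). ENDOD1 was low in the low RFI gilt of sow 1435 (2.03, the nearest at 3.78) and high in the high RFI gilt of sow 1417 (5.74, the nearest at 4.63). LGR5 was high in the low RFI gilt of sow 1410 (2.01) and in the high RFI gilt of sow 1411 (2.20), at a level close to background.

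For 32 of the 87 named genes the effect differed between gilts and males at an unadjusted p under 0.05 in limma. None passed after adjustment over all probesets. Many of these genes were named for their gilt effect or for this difference, so 32 of 87 cannot be read against the 5.95% of all probesets.

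Gilt minus male differences above 0 were those of FDPS (2.17), WDR12 (1.84), RUNDC3A (1.81), NHEJ1 (1.77), ASAP2 (1.64), RENBP (1.59), PTTG1 (1.56), HSPB1 (1.20), BACH2 (1.18), CD209 (1.15), OSBPL1A (0.96), PCK2 (0.80), ECE2 (0.80), AIF1 (0.57), ERCC1 (0.53) and CYP19A1 (0.51).

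Those below 0 belonged to PTBP3 (-3.45), PSMB8 (-2.50), RPL10 (-1.70), GIPC2 (-1.64), ENDOD1 (-1.37), PAFAH2 (-1.34), CPT1B (-1.14), PLD5 (-1.06), PARP14 (-1.03), MAX (-0.99), CCNB2 (-0.90), ABCC1 (-0.74), TAB1 (-0.70), ALPK1 (-0.60), ABCC9 (-0.59) and ESR2 (-0.46).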

How the results depend on the processing

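The count of 940 calls in gilts lay between 745 and 1036 over the settings with all litters, and between 885 and 1114 without each litter. No setting gave a call after adjustment (smallest adjusted p 0.0541, without sow 1410). Without the litter as a block 745 probesets passed (567 of the 940), with the sow as a random block 905, and with the spread shared over all 20 pigs by pair 867. The share of calls higher in low RFI gilts was 44.1%, and 40.4% to 53.7% over the settings, the highest with arrays centred on their medians. The male count (1482) lay between 1202 and 1761 and that of the sex difference (1493) between 1116 and 1574. Of 70 named genes that passed, 27 did so in every setting with all litters in which they were tested, but the mean and SD filters left only 46 of the 70, and 18 of the 27, to test. Averaging the probesets of each gene turned the sign of HTRA4 (0.20) and BUB1 (-0.022), neither of which then passed, and 13 others no longer passed. The causes were not tested. Under the study's mean and SD filters 22136 probesets remained and 846 passed. Medians of gene lists without each litter and under both scalings were added after the data were seen. Differences under 0.37 were mostly not detectable at this precision.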

Other observations

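Some lists moved within litters without a shared direction among the gilts. The 10 brush border hydrolases had medians within litters of -0.30, -0.23, -0.07, -0.003 and 0.16 in the order of the sows 1406, 1410, 1411, 1417 and 1435. The 18 goblet cell genes had 0.07, 0.23, 0.09, -0.22 and -0.53. Complement genes, which include plasma proteins made locally in the mucosa, had 0.76, 0.51, 0.01, -0.09 and -0.67. The B cell and follicle genes fell in the same order (0.99, 0.64, 0.32, 0.21 and -0.60), as did the fibroblast and matrix genes (0.74, 0.66, 0.01, -0.24 and -0.38). Lists of plasma cells, macrophages and dendritic cells, chemokines, endothelium and DNA replication also fell in this order, so it was not particular to complement and B cells. FABP2, the fatty acid-binding protein of enterocytes, ran from 6.68 to 9.88 over the 10 gilts and differed by 0.15 between RFI classes, which did not pass.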
